A study of Homo sapiens with 15 samples.

Results

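The transcripts described here are the small Cajal body RNAs (scaRNAs) measured in HEK293T cells under 5 siRNAs. They were sought in the platform's probe-to-gene table as every gene whose symbol starts with SNORA or SCARNA followed by a digit. The search found 23 of the 14884 genes measured, and all 23 had SCARNA symbols. The table named 0 SNORA genes, so box H/ACA small nucleolar RNAs (snoRNAs) under that name are not analysed here, and the members are called scaRNAs throughout. The label of this gene group, box H/ACA RNAs, also did not cover every member. SCARNA2, SCARNA7, SCARNA9 and SCARNA17 are known as box C/D RNAs, SCARNA9L is a copy of SCARNA9, and SCARNA5, SCARNA6, SCARNA10 and SCARNA12 are known to carry both kinds of box. Each scaRNA was measured by 1 named probe set.

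ScaRNAs are noncoding RNAs of the Cajal body, a nuclear compartment in which the RNAs of the spliceosome are modified and assembled. A box H/ACA RNA base-pairs with its target and directs conversion of a uridine to pseudouridine by the enzyme dyskerin (DKC1), held in a complex with NHP2, NOP10 and GAR1. A box C/D RNA directs ribose methylation by fibrillarin (FBL). Most human scaRNAs are cut out of introns of host transcripts, after which exonucleases trim their ends up to the bound proteins. SCARNA2 is a known exception with a promoter of its own. The mature RNAs carry no poly(A) tail and are long-lived.

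The study asked how particular the response to silencing of LOC550643 was. LOC550643 encodes NoBody, a small protein of the cytoplasmic decapping machinery, and was targeted with a pool of 4 siRNAs. The other arms received siRNA to Dcp2 (the mRNA decapping enzyme, a related function), DcpS (the enzyme that hydrolyses the cap remnant after decay from the 3′ end, chosen as unrelated) or GAPDH (a glycolytic enzyme, chosen as unrelated), and the reference arm a non-silencing siRNA. Every group, the non-silencing one included, consisted of HEK293T cells, a human embryonic kidney line, treated with actinomycin D at 1 ug/mL for 4 hours from 48 hours after transfection. Actinomycin D blocks transcription in general, so a level reflects both what was present before the drug and what was lost during it, and there were no arrays without the drug. Each group had 3 arrays. The labels do not state that these were separate cultures, and the spread behind every p-value may therefore be technical.

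DCP2 mRNA fell in the Dcp2 arrays (log2 change -1.80, limma adjusted p = 3.15e-06) and also, less far, in the DcpS arrays (log2 change -0.54, limma adjusted p = 0.0252). The DcpS call was lost without DcpS replicate 1 or 2, without non-silencing replicate 2 or 3, with adjustment over all probe sets and in a fit of the 2 groups alone (limma adjusted p up to 0.145). GAPDH mRNA fell in the GAPDH arrays (log2 change -1.23, limma adjusted p = 2.7e-05). For LOC550643 and for DCPS no probe set was named, and the depth of these knockdowns is not analysed here. Of 8 markers of HEK293T cells 5 were measured, all above the median gene (means of 6.06 to 9.53 log2 units), and of 11 markers of other cell types 4 were measured, 0 of them above it (2.39 to 3.49). Correlations between arrays over all probe sets lay between 0.983 and 0.991 within groups and between 0.981 and 0.991 across groups, and 0 pairs of arrays were identical. The number of arrays limits the precision.

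Most of the scaRNAs gave signals above that of the median gene. Levels are log2 intensities after RMA, a procedure that corrects background, makes the arrays' distributions alike and summarises probes. Over the 15 arrays, 17 of 23 scaRNAs lay above the median gene, at 5.47 log2 units. The highest means were those of SCARNA22 (10.37), SCARNA17 (10.20), SCARNA9 (10.07), SCARNA12 (10.05) and SCARNA7 (9.60). The lowest were those of SCARNA15 (3.20), SCARNA14 (3.88), SCARNA23 (4.29), SCARNA18 (4.43) and SCARNA11 (4.94). A probe set's brightness also depends on its probes, so these means rank signals and not the abundance of one RNA against another. RNA was purified on RNeasy silica columns, which are known to recover RNAs under 200 nt poorly in their standard protocol. By the RefSeq annotation the scaRNAs are 125 to 421 nt long, 9 of them 200 nt or longer and 14 shorter. The part of length-dependent recovery in the values was not tested.

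By limma's moderated F test (called at an adjusted p under 0.05 over all genes), 4 of the 23 scaRNAs (17.4%) differed among the 5 groups. This share is near the 12.2% of all genes called, so it does not set scaRNAs apart from genes in general. The 4 were SCARNA22 (adjusted p = 0.00324), SCARNA16 (0.0129), SCARNA9L (0.0391) and SCARNA12 (0.0477). SCARNA22, also known as ACA11, SCARNA16 (ACA47) and SCARNA12 (U89) are encoded in different genes and share no family name. The calls of SCARNA22 and SCARNA16 were kept without any 1 of the 15 arrays, whereas those of SCARNA9L and SCARNA12 were each lost without any of 12 of the 15. Of the 15 fits with 1 array left out, 10 gave 2 called scaRNAs, 4 gave 3, and the fit without DcpS replicate 3 gave 7. With the replicate number as a block 5 were called, among them SCARNA1 (limma adjusted p = 0.0181) and SCARNA18 (0.0283) and not SCARNA9L. With p-values adjusted over all probe sets, named or not, 1 was called, SCARNA22.

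SCARNA22 had the smallest F test p of the 23. Its levels were 10.59, 10.65 and 10.60 log2 units in the LOC550643 arrays and 10.31, 10.39 and 10.35 in the Dcp2 arrays. In the DcpS arrays they were 10.14, 10.14 and 10.20, in the GAPDH arrays 10.06, 10.21 and 10.28, and in the non-silencing arrays 10.47, 10.54 and 10.55. Every DcpS, GAPDH and Dcp2 array was thus lower than every non-silencing array, and every LOC550643 array was higher. The whole span between the lowest and highest arrays was small, and the SD within a group lay between 0.03 (LOC550643) and 0.12 (GAPDH).

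SCARNA16 had levels of 8.60, 8.62 and 8.72 log2 units in the LOC550643 arrays and 8.24, 8.61 and 8.35 in the Dcp2 arrays. It had 7.99, 7.85 and 8.03 in the DcpS arrays, 7.78, 7.99 and 8.50 in the GAPDH arrays and 8.55, 8.51 and 8.82 in the non-silencing arrays. The DcpS arrays all lay below the LOC550643, Dcp2 and non-silencing arrays. The GAPDH arrays were spread widely, with replicate 3 far above the others.

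SCARNA12, which carries both kinds of box, had levels of 10.18, 10.26 and 10.36 log2 units in the LOC550643 arrays, 9.86, 10.16 and 10.16 in the Dcp2 arrays and 9.76, 9.64 and 10.07 in the DcpS arrays. The GAPDH arrays had 9.83, 9.75 and 10.04, and the non-silencing arrays 10.32, 10.20 and 10.16. All DcpS and GAPDH arrays were below all LOC550643 and non-silencing arrays, with DcpS replicate 3 the nearest to them.

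SCARNA9L had levels of 9.82, 9.66 and 9.70 log2 units in the LOC550643 arrays, 9.61, 9.79 and 9.68 in the Dcp2 arrays, 9.19, 9.26 and 9.51 in the DcpS arrays, 9.53, 9.56 and 9.44 in the GAPDH arrays and 9.57, 9.68 and 9.75 in the non-silencing arrays. The DcpS arrays were again below the LOC550643, Dcp2 and non-silencing arrays. SCARNA9, from which the copy takes its name, was at 10.34, 10.12 and 10.29 in the LOC550643 arrays, 9.72, 9.64 and 10.18 in the DcpS arrays and 10.13, 9.98 and 10.12 in the non-silencing arrays. For SCARNA9 DcpS replicate 3 lay among the other groups' arrays, and the groups overlapped. SCARNA9 and SCARNA9L are near copies, so their probes may measure both, and the values of the pair are uncertain as separate transcripts.

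**Figure D1:**
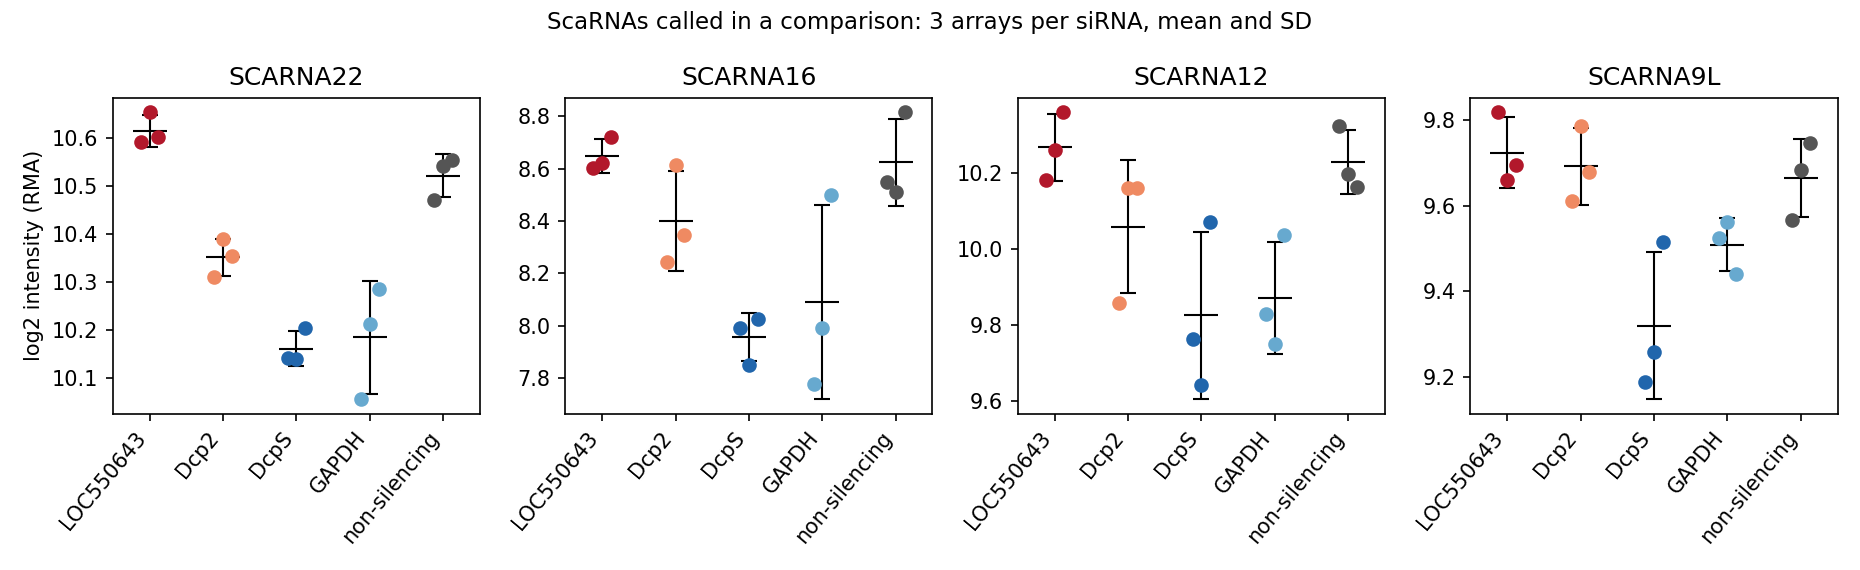
Levels of the 4 scaRNAs called in a comparison, in log2 RMA intensity on the vertical axis, for the 3 arrays of each siRNA group on the horizontal axis (points: arrays, left to right replicates 1 to 3; long bar: mean; whiskers: SD). Each panel has its own scale, which does not start at 0. The DcpS arrays of SCARNA22, between 10.14 and 10.20, lie below all 3 non-silencing arrays, between 10.47 and 10.55.

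With DcpS siRNA, SCARNA16 and SCARNA22 were lower than with non-silencing siRNA. SCARNA16 fell to 7.96 ± 0.09 log2 units in DcpS cells, against 8.62 ± 0.17 in non-silencing cells (SD, n = 3 each), a change of -0.67 (SE 0.15, limma adjusted p = 0.0215) that left 63.0% of the non-silencing level. SCARNA22 fell to 10.16 ± 0.04 in DcpS cells, against 10.52 ± 0.05 in non-silencing cells (SD, n = 3 each), a change of -0.36 (SE 0.08, limma adjusted p = 0.0185) that left 77.9%. These were the 2 of 23 scaRNAs called, both lower, where 3.61% of all genes were called and 1.85% were called lower. The fit did not pair the arrays by replicate number. With the replicate number as a block, both stayed called (limma adjusted p = 0.0134 for SCARNA16 and 0.0208 for SCARNA22).

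The other scaRNAs in DcpS cells did not pass the adjusted test, although most had values below those of non-silencing cells. The counts that follow are over all 23 scaRNAs, SCARNA16 and SCARNA22 included. The change was below 0 for 17 of 23 and the median change was -0.23. Over all genes the median was 0.00 and 50.5% of changes were above 0. In 8 scaRNAs all DcpS arrays lay below all non-silencing arrays and in 0 all lay above, where 9.2% of all genes were entirely lower and 9.29% entirely higher. At an unadjusted p under 0.05, 8 were lower, where 8.06% of all genes were. After SCARNA16, the most negative changes were those of the dim SCARNA18 (-0.62, limma adjusted p = 0.124) and of SCARNA6 (-0.55, limma adjusted p = 0.0625). SCARNA18 was at 3.61, 3.98 and 4.21 in DcpS arrays and 4.45, 4.31 and 4.90 in non-silencing arrays, and SCARNA6 at 7.10, 6.80 and 7.10 in DcpS arrays and 7.64, 7.30 and 7.72 in non-silencing arrays. In neither did the groups overlap. SCARNA5, encoded in the same gene as SCARNA6, was at -0.55 as well with a wider spread (SE 0.24, limma adjusted p = 0.278). SCARNA9L (-0.35, limma adjusted p = 0.0653) and SCARNA12 (-0.40, limma adjusted p = 0.0823) also missed the threshold. SCARNA4 (0.59, limma adjusted p = 0.128), SCARNA8 (0.43, limma adjusted p = 0.342) and SCARNA14 (0.39, limma adjusted p = 0.377) had the most positive values.

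The count for DcpS depended on single arrays. Without DcpS replicate 3 it was 5 (SCARNA1, SCARNA9L, SCARNA12, SCARNA16 and SCARNA22, with SCARNA1 at -0.69 in place of -0.40), and without DcpS replicate 2 or without non-silencing replicate 3 it was 0. SCARNA22 also lost its call without DcpS replicate 1 (adjusted p = 0.0526 by limma) and without non-silencing replicate 2 (0.0714), while SCARNA4 was called higher without DcpS replicate 1 (0.80, limma adjusted p = 0.0385). SCARNA6 was called without LOC550643 replicate 3 (limma adjusted p = 0.0377) and without non-silencing replicate 2 (-0.68, limma adjusted p = 0.0475). With the replicate number as a block, SCARNA18 was called as well (limma adjusted p = 0.0427) and the count was 3. Adjustment over all probe sets ended the call of SCARNA16 (limma adjusted p = 0.0764), and a fit of DcpS and non-silencing arrays alone that of SCARNA22 (limma adjusted p = 0.109).

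**Figure D2:**
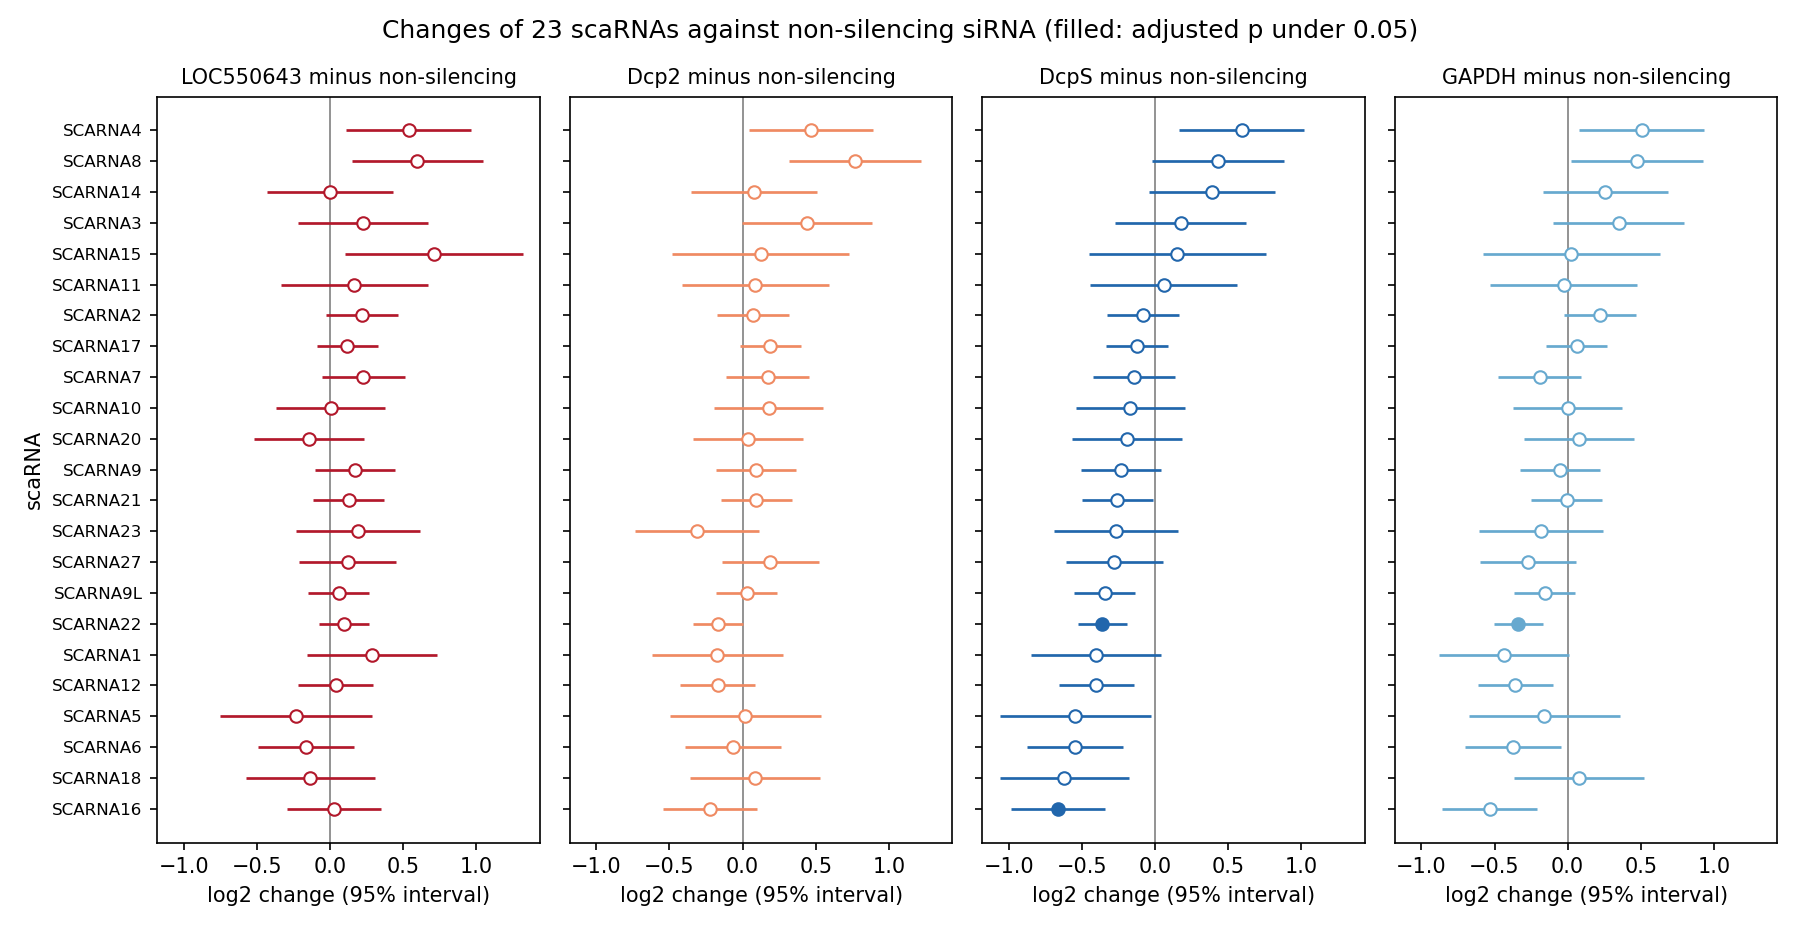
Log2 change of each of the 23 scaRNAs against the non-silencing siRNA for the LOC550643, Dcp2, DcpS and GAPDH siRNAs, on the horizontal axis, with the 95% interval from limma's moderated fit as a line. Rows are ordered by the DcpS change, and filled points mark scaRNAs called at an adjusted p under 0.05. Only SCARNA22 and SCARNA16 with DcpS and SCARNA22 with GAPDH are filled, and most DcpS points lie left of 0.

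Array by array, the scaRNAs were lowest in DcpS replicates 1 and 2. The median difference of the 23 scaRNAs from the mean of the non-silencing arrays was -0.36, -0.31 and -0.01 log2 units in the DcpS arrays, with 18, 14 and 13 of the 23 below it. In the LOC550643 arrays it was 0.12, 0.04 and 0.18, in the Dcp2 arrays 0.06, 0.15 and 0.03, and in the GAPDH arrays -0.10, -0.10 and -0.06. The non-silencing arrays, which set the zero, were themselves at -0.09, -0.01 and 0.13. DcpS replicate 3 thus lay within the range of the non-silencing arrays, LOC550643 replicate 3 and Dcp2 replicate 2 lay above that range, and GAPDH replicates 1 and 2 lay just below it. The scaRNAs varied more within a group than genes in general. Their median SD over 3 arrays was 0.16 in LOC550643, 0.17 in Dcp2, 0.25 in DcpS, 0.19 in GAPDH and 0.17 in non-silencing cells, and the median SD of all genes was between 0.11 and 0.14 in these groups.

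**Figure D3:**
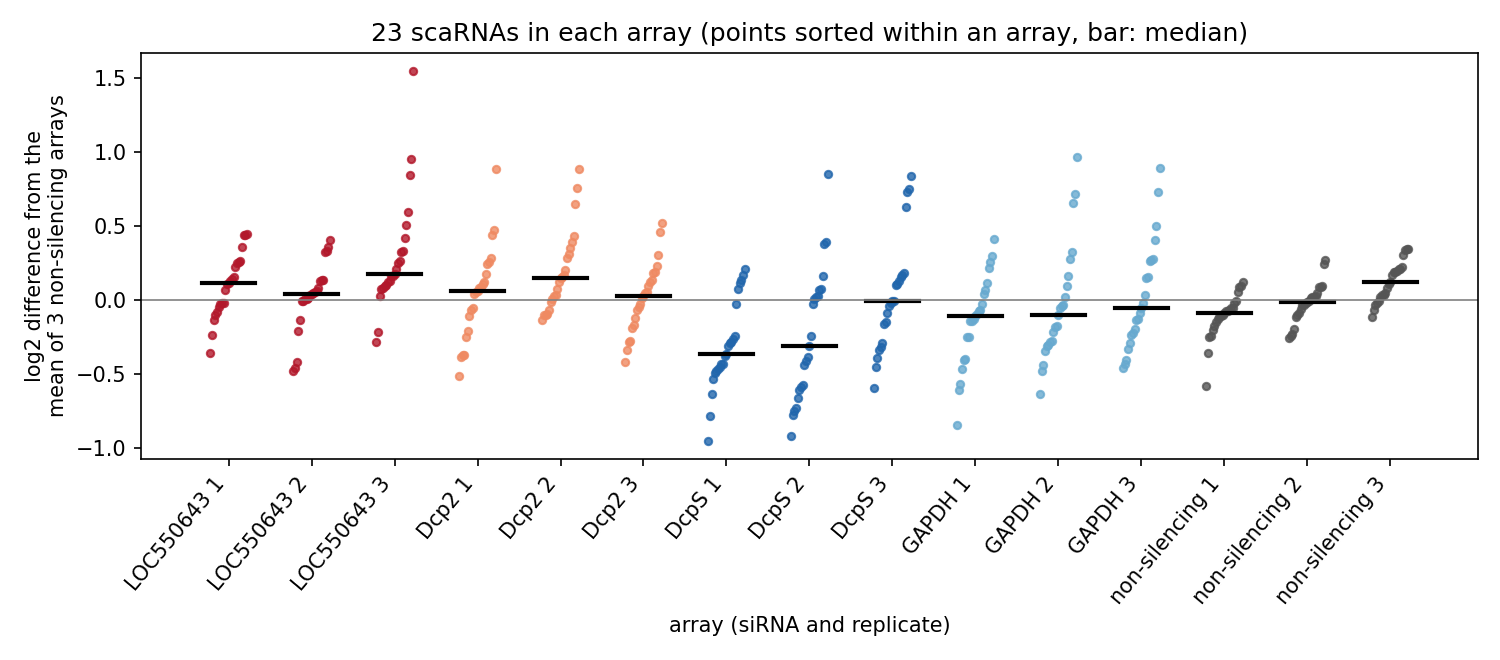
Difference of each scaRNA from its own mean over the 3 non-silencing arrays, in log2 units on the vertical axis, in each of the 15 arrays on the horizontal axis (points: 23 scaRNAs sorted within an array; bar: their median). The medians of DcpS replicates 1 and 2, at -0.36 and -0.31, are the lowest, and that of DcpS replicate 3, at -0.01, lies among the non-silencing arrays.

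With GAPDH siRNA the scaRNA called was SCARNA22. SCARNA22 fell to 10.18 ± 0.12 in GAPDH cells, against 10.52 ± 0.05 in non-silencing cells (SD, n = 3 each), a change of -0.34 (SE 0.08, limma adjusted p = 0.0415) that left 79.2%. It was 1 of 23 scaRNAs called (4.35%, a share resting on 1 RNA), where 2% of all genes were called and 1.27% were called lower. This call was lost on leaving out any of 13 of the 15 arrays, the exceptions being DcpS replicate 1 and GAPDH replicate 3, and also with adjustment over all probe sets and in a fit of the 2 groups alone. SCARNA16 was at -0.53 (limma adjusted p = 0.0922), and without its high GAPDH replicate 3 it was at -0.74 and called (limma adjusted p = 0.0106).

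Among the remaining scaRNAs in GAPDH cells, the most negative values after SCARNA16 were those of SCARNA1 (-0.43, limma adjusted p = 0.383) and SCARNA6 (-0.37, limma adjusted p = 0.29). The most positive were those of SCARNA4 (0.51, limma adjusted p = 0.264), SCARNA8 (0.48, limma adjusted p = 0.334) and SCARNA3 (0.35, limma adjusted p = 0.51). The median change of the 23 scaRNAs was -0.03 with 9 above 0, where the median of all genes was 0.00 and 50% of changes were above 0. In 5 of the 23 scaRNAs, SCARNA22 included, the GAPDH arrays all lay below the non-silencing arrays (8.8% of all genes). In 1, SCARNA8, all lay above (8.49%).

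LOC550643 siRNA gave 0 called scaRNAs of 23 against non-silencing by limma, where 1.57% of all genes were called. At an unadjusted p under 0.05, 3 were higher (6.48% of all genes) and 0 lower (5.97%). The change was above 0 for 19 of 23 (48.1% of all genes), with a median of 0.12 against -0.01 over all genes. In 7 scaRNAs (SCARNA2, SCARNA4, SCARNA7, SCARNA8, SCARNA15, SCARNA17 and SCARNA22) all LOC550643 arrays lay above all non-silencing arrays, where 8.61% of all genes did, and in 0 all lay below, where 8.4% did.

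SCARNA15 (ACA45), known as a source of a small regulatory RNA cut by Dicer, had the most positive value with LOC550643. It was at 3.23, 3.36 and 4.55 in LOC550643 arrays and 2.95, 3.09 and 2.97 in non-silencing arrays (0.71, SE 0.29, limma adjusted p = 0.296). This is the dimmest scaRNA, and most of the difference came from LOC550643 replicate 3. SCARNA8 (0.60, limma adjusted p = 0.217) and SCARNA4 (0.54, limma adjusted p = 0.246) followed. SCARNA5 (-0.23, limma adjusted p = 0.785), SCARNA6 (-0.16) and SCARNA20 (-0.15, limma adjusted p = 0.82) had the most negative values.

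Dcp2 siRNA likewise gave 0 called scaRNAs of 23 by limma, where 1.98% of all genes were called. At an unadjusted p under 0.05, 3 passed (16.3% of all genes), namely SCARNA8 and SCARNA4 with values above 0 and SCARNA22 with one below. The median change was 0.08, with 17 of 23 above 0 (50.3% of all genes). The Dcp2 arrays lay wholly above the non-silencing arrays in 4 scaRNAs (11.6% of all genes) and wholly below in 3 (11.3%). The largest value was that of SCARNA8 (0.77, limma adjusted p = 0.0738), which was called with the replicate block (limma adjusted p = 0.0356). SCARNA4 (0.47, limma adjusted p = 0.254) and SCARNA3 (0.44, limma adjusted p = 0.312) came next, and SCARNA23 (-0.31, limma adjusted p = 0.482), SCARNA16 (-0.22, limma adjusted p = 0.523) and SCARNA1 (-0.17, limma adjusted p = 0.758) were at the other end. The interval for SCARNA22 reached from -0.34 to -0.00 (log2 change -0.17, limma adjusted p = 0.305).

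SCARNA8 (U92) and SCARNA4 (ACA26) had their lowest group mean in the non-silencing arrays. SCARNA8 was at 9.11, 9.08 and 9.63 in the LOC550643 arrays, 9.56, 9.56 and 9.20 in the Dcp2 arrays, 8.75, 9.05 and 9.51 in the DcpS arrays and 8.93, 8.95 and 9.57 in the GAPDH arrays. The non-silencing arrays had 8.43, 8.70 and 8.90. SCARNA4 was at 6.81, 6.70 and 7.22 in the LOC550643 arrays, 6.81, 7.03 and 6.68 in the Dcp2 arrays, 6.54, 7.23 and 7.12 in the DcpS arrays and 6.44, 7.09 and 7.11 in the GAPDH arrays, against 6.26, 6.29 and 6.57 in the non-silencing arrays. LOC550643 and Dcp2 arrays did not overlap the non-silencing arrays for either RNA, and DcpS arrays overlapped them for both. All 4 differences use the same 3 non-silencing arrays, and 0 of them was called for either RNA.

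**Figure D4:**
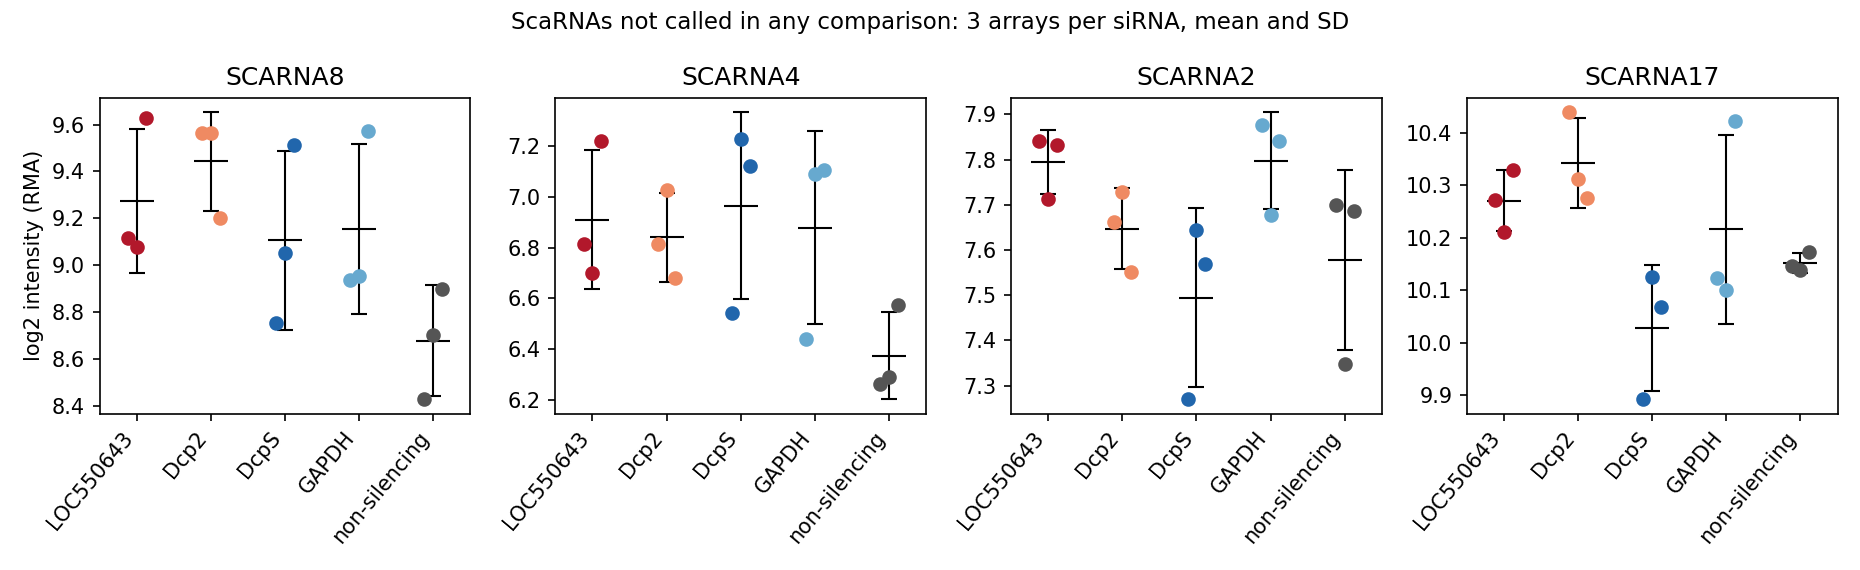
Levels of 4 scaRNAs that were not called in any comparison, in log2 RMA intensity on the vertical axis, for the 3 arrays of each siRNA group on the horizontal axis (points: arrays, left to right replicates 1 to 3; long bar: mean; whiskers: SD). Each panel has its own scale, which does not start at 0. SCARNA8 and SCARNA4 have their lowest means with non-silencing siRNA, and the box C/D RNAs SCARNA2 and SCARNA17 have theirs with DcpS siRNA.

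LOC550643 siRNA was also set against DcpS siRNA. In this comparison 4 of 23 scaRNAs were called, all higher in LOC550643 cells, where 6.4% of all genes were called and 3.49% were called higher. SCARNA22 was at 10.61 ± 0.03 in LOC550643 cells and 10.16 ± 0.04 in DcpS cells (SD, n = 3 each), a difference of 0.45 (SE 0.08, limma adjusted p = 0.00291). SCARNA16 was at 8.65 ± 0.06 in LOC550643 cells and 7.96 ± 0.09 in DcpS cells (SD, n = 3 each), a difference of 0.69 (SE 0.15, limma adjusted p = 0.0121). SCARNA9L was higher by 0.40 (SE 0.10, limma adjusted p = 0.0216) and SCARNA12 by 0.44 (SE 0.12, limma adjusted p = 0.0398). The comparison shares its DcpS arrays with that of DcpS and non-silencing cells, so the values of both repeat in part the same low DcpS levels.

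The counts that follow are over all 23 scaRNAs, those 4 included. Between LOC550643 and DcpS cells, 21 of 23 differences were above 0 (47.1% of all genes), with a median of 0.39 against -0.01 over all genes. At an unadjusted p under 0.05, 14 were higher and 0 lower, where 9.8% of all genes were higher and 9.08% lower. In 10 scaRNAs the LOC550643 arrays all lay above the DcpS arrays (10.9% of all genes). In 1, SCARNA14, they all lay below (11% of all genes). With the replicate block 6 of 23 were called, the 4 above with SCARNA1 (limma adjusted p = 0.0125) and SCARNA21 (limma adjusted p = 0.0455). SCARNA1 was at 6.41, 6.63 and 6.72 in LOC550643 arrays and 5.52, 5.69 and 6.48 in DcpS arrays, a difference of 0.69 (limma adjusted p = 0.0647) with DcpS replicate 3 inside the LOC550643 range. SCARNA21 (0.39, limma adjusted p = 0.0571) was at 7.69, 7.62 and 7.71 in LOC550643 arrays and 7.05, 7.30 and 7.51 in DcpS arrays, without overlap. SCARNA9 (0.41, limma adjusted p = 0.0762), SCARNA7 (0.37, limma adjusted p = 0.121) and SCARNA2 (0.30, limma adjusted p = 0.159) were not called. Without DcpS replicate 3, SCARNA1, SCARNA9 and SCARNA21 were called (limma adjusted p = 0.00409, 0.00736 and 0.0196).

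The count of 4 was 8 without DcpS replicate 3, 1 without DcpS replicate 2, and 2 without DcpS replicate 1 or without LOC550643 replicate 1. SCARNA22 was called in each of these. SCARNA12 was the least stable and lost its call without any of 8 arrays (limma adjusted p up to 0.158), which were the LOC550643 arrays, DcpS replicates 1 and 2, GAPDH replicate 1 and non-silencing replicates 2 and 3. SCARNA9L lost its call without LOC550643 replicate 1 or without DcpS replicate 1 or 2, and SCARNA16 without DcpS replicate 2 (limma adjusted p = 0.0508). SCARNA9L and SCARNA12 were also not called after adjustment over all probe sets (limma adjusted p = 0.0543 and 0.105) or in a fit of the LOC550643 and DcpS arrays alone (0.104 and 0.107).

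LOC550643 cells also had more SCARNA22 than GAPDH cells, by 0.43 (SE 0.08, limma adjusted p = 0.00571), with 10.61 ± 0.03 in LOC550643 cells and 10.18 ± 0.12 in GAPDH cells (SD, n = 3 each). It was 1 of 23 called (4.35%), near the 4.08% of all genes called, of which 2.48% were called higher. SCARNA16 (0.56, limma adjusted p = 0.0502) lay just outside the threshold. SCARNA1 (0.72, limma adjusted p = 0.0684), SCARNA12 (0.40, limma adjusted p = 0.0819) and SCARNA7 (0.42, limma adjusted p = 0.0969) were not called either. SCARNA16 was called without GAPDH replicate 3 (0.76, limma adjusted p = 0.00406) and without Dcp2 replicate 2 (0.56, limma adjusted p = 0.0486), and SCARNA1 was called without DcpS replicate 1 or 3 or without non-silencing replicate 1. With the replicate block, SCARNA1 and SCARNA16 were called too and the count was 3. In a fit of the LOC550643 and GAPDH arrays alone SCARNA22 missed the threshold (limma adjusted p = 0.0602) and SCARNA1 was called. The median difference over the 23 scaRNAs was 0.19 with 17 above 0 (48.5% of all genes), and in 9 the LOC550643 arrays lay wholly above the GAPDH arrays (11.2% of all genes).

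LOC550643 siRNA was set against Dcp2 siRNA as well. By limma 0 of 23 were called, where 3.2% of all genes were, and 3 passed an unadjusted p under 0.05, where 16.1% of all genes did. The median difference was 0.03, with 13 of 23 above 0 (47.4% of all genes). SCARNA22 was higher in each LOC550643 array than in each Dcp2 array, and its difference of 0.26 had a limma adjusted p of 0.0892 and a 95% interval from 0.09 to 0.43. It was called with the filter on dim genes and with the trended prior (limma adjusted p = 0.0392 and 0.0234 in that order). Whether the response to LOC550643 siRNA resembled that to Dcp2 siRNA more than the others cannot be read from these counts, since a p above the threshold does not show that levels were alike.

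The kinds of scaRNA were described side by side by their changes with DcpS against non-silencing siRNA. The 4 box C/D RNAs had a median change of -0.13 and 0 above 0. The 4 mixed RNAs had a median of -0.47 and 0 above 0. The other 15, which include SCARNA9L, had a median of -0.26 with 6 above 0. By length, the 9 RNAs of 200 nt or more had a median of -0.23 with 0 above 0 and the 14 shorter ones a median of -0.23 with 6 above 0. These 9 were the box C/D RNAs, the mixed RNAs and SCARNA9L, so the splits by kind and by length are nearly the same split. In LOC550643 against DcpS cells the medians were 0.34 for box C/D, 0.35 for mixed and 0.40 for the other RNAs. By brightness, the 17 scaRNAs above the median gene had a median DcpS change of -0.26 and the 6 below it, all shorter than 200 nt, one of 0.11. No difference between these classes was tested.

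Among the box C/D RNAs, the span between the lowest and the highest of the 15 arrays was 0.55 log2 units for SCARNA17, 0.61 for SCARNA2, 0.70 for SCARNA9 and 0.88 for SCARNA7. SCARNA17 was at 10.27, 10.21 and 10.33 in LOC550643 arrays, 9.89, 10.12 and 10.07 in DcpS arrays and 10.15, 10.14 and 10.17 in non-silencing arrays (DcpS change -0.12, limma adjusted p = 0.618). SCARNA2, which has its own promoter, was at 7.84, 7.71 and 7.83 in LOC550643 arrays, 7.27, 7.64 and 7.57 in DcpS arrays and 7.70, 7.35 and 7.69 in non-silencing arrays (DcpS change -0.08, limma adjusted p = 0.816). The SCARNA2 value turned positive without DcpS replicate 1 (0.029).

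Most scaRNAs lie inside another gene, whose transcript can be their precursor. By their positions in the RefSeq table, without regard to strand, 13 scaRNAs lay within the span of 12 genes that were measured, and 10 had no measured holding gene. Of these 12 genes, 0 were called in any of the 7 comparisons, where 1.57% to 6.4% of all genes were called in each. With so few genes, this count does not set holding genes apart from genes in general. In DcpS against non-silencing cells, NSD2, the histone methyltransferase gene that holds SCARNA22, had a log2 change of 0.10 (limma adjusted p = 0.668) and SCARNA22 one of -0.36. SNHG20, a noncoding host RNA that holds SCARNA16, had one of -0.25 (limma adjusted p = 0.263) and SCARNA16 one of -0.67. PHB2, the prohibitin gene that holds SCARNA12, was at 0.00. ATG16L1, an autophagy gene that holds both SCARNA5 and SCARNA6, was at 0.13, and TMEM167A, which holds SCARNA18, at -0.13. KHDC4, which holds SCARNA4, was at -0.23 and SCARNA4 at 0.59, neither called.

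Over the 13 pairs the scaRNA and its holding gene had the same sign in 6 and the opposite sign in 7 for DcpS against non-silencing, PHB2 at 0.00 being counted among the 7. For LOC550643 against DcpS cells the signs were the same in 8 and opposite in 5. There, NSD2 differed by -0.20, SNHG20 by 0.12 and PHB2 by -0.17, where their scaRNAs were higher by 0.45, 0.69 and 0.44. A whole-transcript array measures holding genes mainly through spliced mRNA, and the unspliced precursor was not measured separately.

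**Figure D5:**
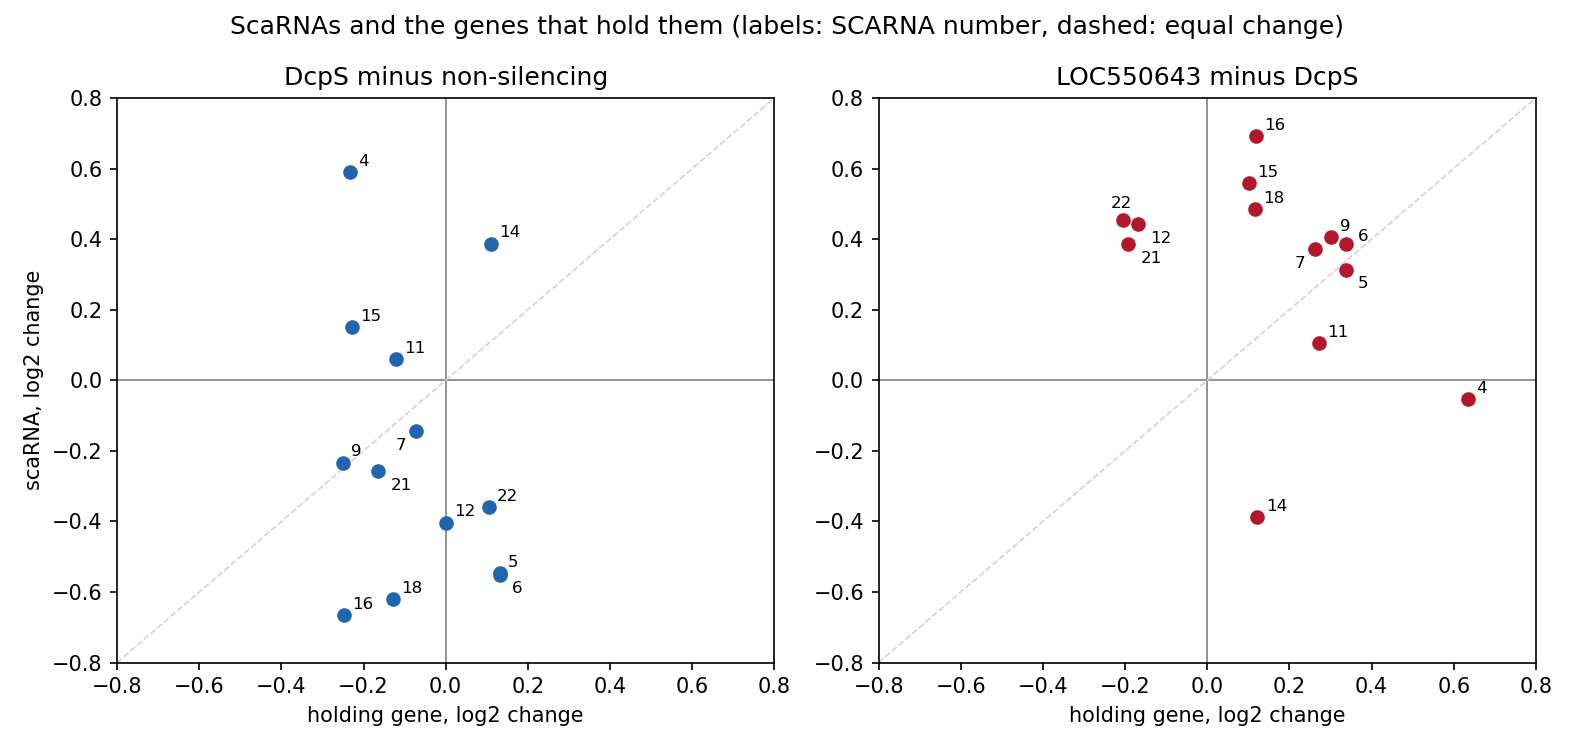
Log2 change of 13 scaRNAs on the vertical axis against that of the measured gene that holds each on the horizontal axis, for DcpS minus non-silencing on the left and LOC550643 minus DcpS on the right (labels: SCARNA number; dashed line: equal change). In the left panel 6 of 13 pairs have the same sign and in the right panel 8.

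The mRNAs of proteins that bind, place and trim these RNAs gave few calls other than NOLC1. Of 8 core and assembly proteins of box H/ACA RNAs 7 were measured, and 0 were called with LOC550643, Dcp2 or DcpS siRNA against non-silencing. NOP10, a core protein, was called with GAPDH siRNA (0.39, limma adjusted p = 0.0437), a call lost without any of 12 arrays, with quantile normalization, with adjustment over all probe sets and in a fit of the 2 groups alone (limma adjusted p up to 0.203). Box C/D proteins gave 0 calls in 3 of 4 measured, and the 2 telomerase genes TERT and TERC (itself an H/ACA RNA of the Cajal body) gave 0 calls. Of all genes, 1.57% to 6.4% were called in a comparison, so 0 calls in lists this short do not set them apart.

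NOLC1, a phosphoprotein that shuttles between nucleolus and Cajal body and binds both kinds of guide complex, rose with the LOC550643, Dcp2 and DcpS siRNAs and, less stably, with GAPDH siRNA. It was at 8.84, 8.78 and 8.89 in LOC550643 arrays, 8.95, 8.90 and 8.94 in Dcp2 arrays, 8.98, 8.90 and 8.99 in DcpS arrays and 8.32, 8.23 and 8.34 in GAPDH arrays, against 7.92, 7.85 and 8.04 in non-silencing arrays. The changes were 0.90, 0.99, 1.02 and 0.36 (limma adjusted p = 3.49e-05, 8.44e-06, 8.83e-06 and 0.0307 in that order of siRNAs), and all use the same 3 non-silencing arrays. The GAPDH call was lost without GAPDH replicate 1 or 3 or without non-silencing replicate 1 or 2, with adjustment over all probe sets (limma adjusted p = 0.0658) and in a fit of the 2 groups alone (limma adjusted p = 0.194). In LOC550643 against DcpS cells the NOLC1 difference was -0.12 and was not called (limma adjusted p = 0.477). Coilin (COIL), the scaffold of the Cajal body, was at 0.35, 0.28, 0.37 and 0.12 against non-silencing with LOC550643, Dcp2, DcpS and GAPDH siRNA, and none of these was called.

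Of 10 genes for trimming and nuclear decay of such RNAs 7 were measured. PARN, a deadenylase that trims the 3′ ends of box H/ACA RNAs, was at 8.97, 8.87 and 8.74 in LOC550643 arrays, 8.46, 8.41 and 8.29 in DcpS arrays and 8.91, 8.74 and 8.69 in non-silencing arrays. It was higher in LOC550643 than in DcpS cells by 0.47 (limma adjusted p = 0.0173), and its change of -0.39 in DcpS against non-silencing cells missed the threshold (limma adjusted p = 0.0599), though it was called with the replicate block (limma adjusted p = 0.0383). The call between LOC550643 and DcpS cells was lost without LOC550643 replicate 1 or 2 or without DcpS replicate 3. TENT4B, a poly(A) polymerase that adds short tails to such RNAs, fell in GAPDH cells against non-silencing (-0.59, limma adjusted p = 0.0132) and was higher in LOC550643 than in GAPDH cells (0.73, limma adjusted p = 0.00169). The fall was not called without GAPDH replicate 1, without non-silencing replicate 2 or 3, or in a fit of the 2 groups alone (limma adjusted p = 0.091).

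Other stable noncoding RNAs and snoRNA host transcripts were set beside the scaRNAs. The 7 measured stable RNAs (RPPH1 and RMRP, the RNAs of RNase P and RNase MRP, TERC and 4 vault RNAs) gave 0 calls in each comparison, where 1.57% to 6.4% of all genes were called. The vault RNAs VTRNA1-1 (3.94), VTRNA1-2 (4.16) and VTRNA2-1 (2.39) lay below the median gene at 5.47 log2 units. The 0 calls do not show that levels were alike. Against non-silencing the median change of the 7 was 0.09 for LOC550643, -0.01 for Dcp2, -0.13 for DcpS and -0.04 for GAPDH siRNA. In LOC550643 against DcpS cells 7 of 7 were above 0 (median 0.13), where 47.1% of all genes were. Of 11 snoRNA host genes known by that role, SNHG16 was called in 4 comparisons, always lower in LOC550643 cells. Its log2 change was -0.81 against non-silencing (limma adjusted p = 0.00186), -0.70 against Dcp2 (limma adjusted p = 0.00274), -1.10 against DcpS (limma adjusted p = 4.24e-05) and -0.89 against GAPDH cells (limma adjusted p = 0.000318). SNHG16 holds none of the 23 scaRNAs.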

How the data were processed

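The deposited values were probe set summaries of 15 arrays, 3 for each of 5 siRNAs, on a log2 scale, the base being inferred from their range (1.30 to 14.01). RMA and the oligo package were used, per the submitters' processing notes; no version or genome build is given in the sources used here. RMA makes array distributions alike, so a shift of all transcripts cannot be seen, and medians of the arrays lay between 4.01 and 4.08. Of 53617 probe sets 16098 had 1 gene symbol in the platform's annotation, and 37519 were unnamed here. For 779 genes with several, the probe set with the highest mean was kept, which left 14884 genes.

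All 15 arrays were fitted with limma 3.58.1 (R 4.3.3, data.table version 1.17.8) with 1 mean per group and 10 residual degrees of freedom. P-values were two-sided and adjusted by Benjamini-Hochberg over all genes within each of 7 comparisons and the F test, and a gene was called under 0.05. Intervals are 95%. All 23 members matched RefSeq genes (GRCh38.p14), which gave lengths and neighbouring genes but no strand, and their sequences were not used here. The members and lists were chosen with earlier results of these data known. Named scaRNAs are those called, the 3 most positive and 3 most negative against non-silencing, the 5 brightest and 5 dimmest, and copies; others named for their values were chosen after these were seen. The fitting code was checked on simulated arrays with known changes. For DcpS against non-silencing, 50% of log2 changes of 0.5 and 94% of log2 changes of 1 were recovered. These shares are for genes in general, and the share for scaRNAs was not tested. In the DcpS arrays the median SD was 0.25 for the scaRNAs and 0.14 for all genes. A scaRNA that was not called may thus still have changed by 0.5 or 1 log2 units.

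Replicate numbers were checked as pairs by the correlation of array deviations from group means. It exceeded 0.1 in all pairs only for DcpS and non-silencing (0.394, 0.110 and 0.124), where numbers were taken as pairing the samples. The main fit did not use this pairing, so the main DcpS values are unpaired. The alternative with the replicate block is given beside the results it changed. Other alternatives were quantile normalization, median centring, a filter leaving 7442 genes, the mean of probe sets, array weights, a trended robust prior, adjustment over all probe sets, fits of the compared groups alone, and leaving out each array.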

Additional observations from a re-analysis of the deposited data

How the results depend on the processing

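Counts of called scaRNAs were set beside 24 alternatives (23 for the F test). For LOC550643 against non-silencing the count was 0 in every one. Dcp2 against non-silencing gave 1 in place of 0 with the replicate block, the filter on dim genes and array weights, which was SCARNA8 each time. DcpS against non-silencing gave 3 with quantile normalization, 5 with the filter and 5 with the trended prior in place of 2. It gave 1 with adjustment over all probe sets and 1 with the compared groups alone, and 0 to 5 with arrays left out in turn. GAPDH against non-silencing gave 2 with the filter and 2 with array weights in place of 1, 0 over all probe sets and 0 with the compared groups alone, and 0 to 2 with arrays left out. LOC550643 against Dcp2 gave 1 with the filter and 1 with the trended prior in place of 0, and 0 with any array left out. LOC550643 against DcpS gave 5 with quantile normalization, 7 with the filter and 6 with the trended prior in place of 4. It gave 2 over all probe sets, 2 with the compared groups alone and 1 to 8 with arrays left out. LOC550643 against GAPDH gave 3 with the replicate block, 2 with median centring, 4 with the filter, 5 with array weights and 3 with the trended prior in place of 1, and 1 to 2 with arrays left out. The F test gave 5 with the filter, 5 with array weights and 1 over all probe sets in place of 4, and 2 to 7 with arrays left out. Under the replicate block the counts were 3 for DcpS against non-silencing, 6 for LOC550643 against DcpS and 5 for the F test. Outside the DcpS and non-silencing groups the replicate numbers were not borne out as pairs: 9 of 21 correlations exceeded 0.1, and 6 of 15 arrays matched their own number best. The filter and the adjustment over all probe sets change the number of tests; the cause of the other shifts was not tested. Among the named values run under the alternatives, 5 turned their sign in some of them, and none of the 5 was called. With arrays left out in turn, SCARNA20 in LOC550643 against non-silencing lay between -0.34 and 0.018 (positive without LOC550643 replicate 2), in place of -0.15. SCARNA2 in DcpS against non-silencing lay between -0.20 and 0.029 (positive without DcpS replicate 1), and ATG16L1 between -0.025 and 0.29 (negative without DcpS replicate 2). PHB2 in the same comparison lay between -0.059 and 0.10, and was at -0.027 with quantile normalization and -0.012 with median centring. COIL in GAPDH against non-silencing lay between -0.080 and 0.24 (negative without non-silencing replicate 1). Signal limits the dim scaRNAs, since no background values were used here.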
